A study of Mus musculus with 10 samples.

Results

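Mouse embryonic stem cells that stably express Prdm14 together with Dnmt3b1, an isoform of the de novo DNA methyltransferase DNMT3B, were compared with stem cells that lack Dnmt3b. The comparison used 4 of the 10 arrays of the series, the 2 labelled as PRDM14-overexpressing J1 cells with DNMT3B added (line JP-23+3b-3, called PRDM14_DNMT3B-labelled below) and the 2 labelled as the Dnmt3b knockout (line 8bb, genotype Dnmt3b-/-, called Dnmt3b_KO below). All genes tested were taken, 23811 in all. The other arrays were 2 labelled as parental wild-type J1 cells, 2 of line JP-23 with Prdm14 alone, and 1 each of a Dnmt1 knockout and of a Dnmt1, Dnmt3a and Dnmt3b triple knockout. They entered the estimate of the spread, and J1 is given as a further level for single genes. The housekeeping gene Hprt was at log2 levels of -2.35 and -2.26 on the J1 arrays. It was at 6.06 and 6.35 in line JP-23 and at 6.33 and 6.56 in PRDM14_DNMT3B-labelled cells. The J1 arrays thus differ from lines labelled as derived from J1 in more than the transgenes, which limits J1 as a reference, and the cause was not tested. All cells were grown without feeder cells in GMEM, a basal medium, with serum and leukaemia inhibitory factor (LIF). The groups differ in more than the transgenes, since 1 was labelled wild type with transgenes and the other lacks Dnmt3b, and each group is 1 line, so a difference between the genotypes cannot be told apart from one between these lines. The labels do not say whether replicate arrays came from separate cultures, so p-values measure array-to-array spread that can be technical. Array pairs shared a slide and a scan pass, so every difference could also be taken within slide 1 and within slide 2. The series set out to learn what loss of DNA methylation under PRDM14 overexpression does to gene expression.

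DNMT3A and DNMT3B place new methyl groups on the cytosine of CpG dinucleotides, DNMT3L assists them, and DNMT1 with its partner UHRF1 copies the marks at replication. PRDM14 is a PR-domain protein of the naive pluripotent state and of primordial germ cells that lowers FGF signalling and the de novo methyltransferases, and TET dioxygenases oxidise methylated cytosine. In stem cells DNA methylation keeps silent a group of germline genes with CpG-dense promoters, and the parental copy of imprinted genes. A small part of the cells in such cultures passes through a state in which genes of the 2-cell embryo, such as the Zscan4 family, are switched on.

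Promoters of genes from the 3 groups on which the results turn are shown first, to set out their CpG content. They are Tex14 and Syce1, germline genes that rose, Zscan4c and Zscan4f, 2-cell genes that rose, and Krt8 and Krt18, epithelial keratins that fell. Each sequence holds the 250 bases before the annotated start in RefSeq (build GRCm38.p6), 5′ to 3′ on the strand of the gene, with every CG in capitals. CG is its own reverse complement, so both strands are covered, and 94.2% of the 27025 windows of 300 bases in the table hold at least 1.
Tex14 (chr11:87404815-87405064, forward strand): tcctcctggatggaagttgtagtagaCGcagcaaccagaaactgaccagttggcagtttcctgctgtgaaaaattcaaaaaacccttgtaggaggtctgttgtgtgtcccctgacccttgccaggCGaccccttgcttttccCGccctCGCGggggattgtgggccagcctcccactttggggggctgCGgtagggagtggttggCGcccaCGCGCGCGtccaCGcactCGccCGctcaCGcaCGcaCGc
Syce1 (chr7:140787855-140788104, reverse strand): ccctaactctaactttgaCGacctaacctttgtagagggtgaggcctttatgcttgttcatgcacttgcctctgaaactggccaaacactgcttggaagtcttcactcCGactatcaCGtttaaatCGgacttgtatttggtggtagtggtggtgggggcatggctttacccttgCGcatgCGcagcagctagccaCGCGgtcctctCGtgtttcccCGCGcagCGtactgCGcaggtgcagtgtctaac
Zscan4c (chr7:11005495-11005744, forward strand): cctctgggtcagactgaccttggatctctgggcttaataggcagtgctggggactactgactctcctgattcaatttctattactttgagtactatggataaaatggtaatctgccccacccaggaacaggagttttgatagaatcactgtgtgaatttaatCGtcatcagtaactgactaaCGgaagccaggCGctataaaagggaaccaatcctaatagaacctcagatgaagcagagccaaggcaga
Zscan4f (chr7:11397665-11397914, forward strand): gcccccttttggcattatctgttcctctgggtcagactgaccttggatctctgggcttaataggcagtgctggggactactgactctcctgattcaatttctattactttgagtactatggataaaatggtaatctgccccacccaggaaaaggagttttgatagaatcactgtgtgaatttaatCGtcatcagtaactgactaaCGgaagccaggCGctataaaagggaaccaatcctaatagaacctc
Krt8 (chr15:102004343-102004592, reverse strand): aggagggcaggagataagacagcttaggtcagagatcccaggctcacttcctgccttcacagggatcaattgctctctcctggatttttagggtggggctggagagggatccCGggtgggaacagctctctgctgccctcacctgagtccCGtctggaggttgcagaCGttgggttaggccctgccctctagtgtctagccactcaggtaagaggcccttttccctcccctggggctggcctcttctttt
Krt18 (chr15:102027966-102028215, forward strand): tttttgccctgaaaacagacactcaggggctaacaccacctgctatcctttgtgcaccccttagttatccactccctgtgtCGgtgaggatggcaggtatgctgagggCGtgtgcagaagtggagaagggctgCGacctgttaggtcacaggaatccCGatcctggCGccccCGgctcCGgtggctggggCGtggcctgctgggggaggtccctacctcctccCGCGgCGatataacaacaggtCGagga
The Tex14 window holds 17 CG and that of Syce1 13, many of them near the start. Those of Zscan4c and Zscan4f hold 3 each and share an identical run of 127 bases, that of Krt8 holds 3 and that of Krt18 holds 12. The counts of these genes thus do not separate the 3 groups. Over all windows the median was 6 in these 250 bases, and 38.1% of windows held at most 3.

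Levels are given in log2 units relative to the 75th percentile of each array's spots, so 1 unit is a 2-fold difference and 0 is that percentile. Between 51.19% and 54.16% of spots were well above background on the 4 arrays, and no spot was saturated. Over the 18252 genes that no array left dim, replicates correlated at r = 0.9957 in PRDM14_DNMT3B-labelled cells and 0.9958 in Dnmt3b_KO cells, with median absolute differences of 0.136 and 0.13 log2 units. Arrays of the groups on the same slide correlated at r = 0.9737 and 0.974 with median absolute differences of 0.274 and 0.279. These values are across genes, which are not independent replicates. Stem cell identity was checked with 12 markers, all of them measured on all 4 arrays. Of these, 2 were higher and 3 lower in PRDM14_DNMT3B-labelled cells (limma adjusted p under 0.05), and 7 did not pass. The share changed was 41.7%, against 30.7% of all genes tested, and the differences ran from -0.59 to 1.2 log2 units. Pou5f1, which encodes the pluripotency factor OCT4, was at 6.22 and 6.16 in PRDM14_DNMT3B-labelled cells and at 5.78 and 5.99 in Dnmt3b_KO cells, and Sox2, its partner, at 4.04 and 4.23 against 3.63 and 3.80. Neither passed the test (limma adjusted p of 0.0609 for Pou5f1 and 0.0536 for Sox2), and with the replicate number as a block Sox2 did (0.015), as did Pou5f1 with only probes well above background on all 4 arrays (0.0428). The summed linear signal of the 12 markers was 1501.4 and 1466.75 in PRDM14_DNMT3B-labelled cells, against 1402.6 and 1314.6 in Dnmt3b_KO cells, in units of the 75th percentile.

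The targeted genes were examined first. Dnmt3b was at 4.09 and 4.17 in PRDM14_DNMT3B-labelled cells, against 1.62 and 1.69 in Dnmt3b_KO cells, and J1 had 7.60 and 7.57. The groups did not overlap, which held for 63.3% of all genes tested. Dnmt3b was 5.56-fold higher in PRDM14_DNMT3B-labelled than in Dnmt3b_KO cells (log2 difference 2.47, SE 0.08, limma adjusted p = 3.86e-05), yet below J1. In line JP-23, labelled with Prdm14 alone, Dnmt3b was higher still, at 4.996 and 5.052. The part of the Dnmt3b1 transgene in this signal was not tested. The 3 Dnmt3b probes (mm9 chromosome 2, 153512098 to 153513462) gave differences of 2.73, 2.40 and 2.47. Prdm14 gave the reverse of its label. Its only probe (mm9 chromosome 1, 13103555 to 13103614) read -6.35 and -6.42 in PRDM14_DNMT3B-labelled cells, not well above background, against 1.18 and 1.14 in Dnmt3b_KO cells, and J1 had -0.08 and 0.09. The signal was at least 62.4-fold lower in PRDM14_DNMT3B-labelled cells (limma adjusted p = 1.16e-05). Here "at least" sets the brighter group against the dimmer group's own signal or the lowest signal well above background on that array, whichever was higher. A neighbouring long intergenic transcript, which ends 3729 bases before the Prdm14 probe and was singled out after its values were seen, moved with it. Its best measured probe read -6.30 and -6.43 in PRDM14_DNMT3B-labelled cells, against -1.65 and -1.87 in Dnmt3b_KO cells, at least 8.23-fold lower (limma adjusted p = 0.000114). Its 5 probes differed by -2.74, -4.60, -4.07, -2.71 and -0.42, and the last did not pass (adjusted p = 0.192). Whether the Prdm14 and Dnmt3b probes lie within the transgenes, or within the exons deleted in line 8bb, no source used here states. The overexpression itself was therefore not measured, and the Prdm14 probe goes against the label, so the group is called PRDM14_DNMT3B-labelled throughout and each direction below is that of the arrays so labelled.

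**Figure D1:**
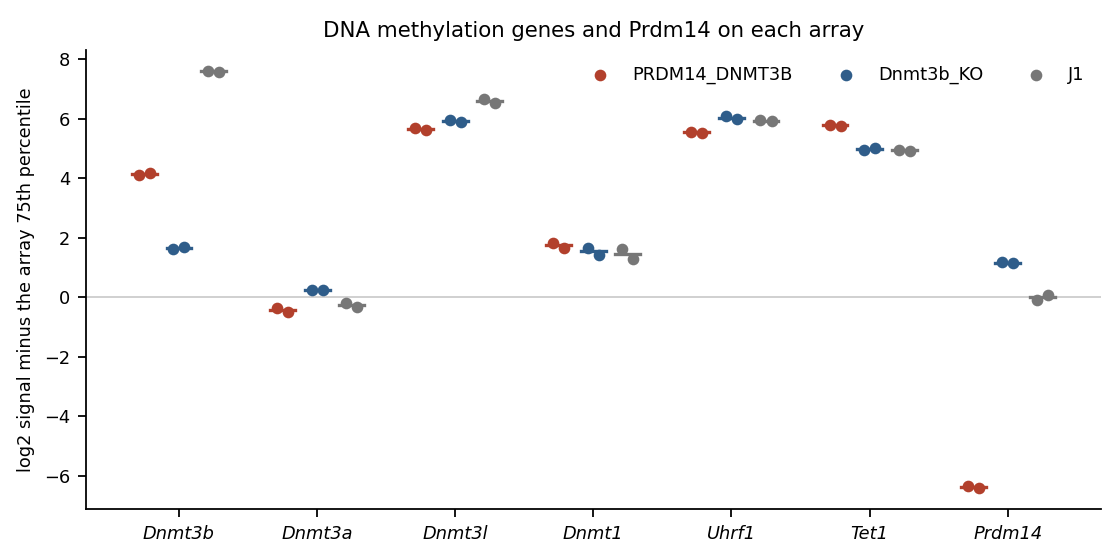
Level of each gene on each array (dots, log2 relative to the array's 75th percentile) with the mean of 2 arrays (lines), in PRDM14_DNMT3B-labelled, Dnmt3b_KO and J1 cells. Dnmt3b lies at about 4.09 to 4.17 in PRDM14_DNMT3B-labelled cells, above Dnmt3b_KO and below J1, and the Prdm14 probe lies under -6 in PRDM14_DNMT3B-labelled cells and above 1 in Dnmt3b_KO cells.

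Of the other DNA methylation genes, most that passed the test differed by less than 2-fold. Dnmt3a, the other de novo methyltransferase, was at -0.36 and -0.49 in PRDM14_DNMT3B-labelled cells, against 0.24 and 0.26 in Dnmt3b_KO cells, and fell by 0.67 log2 units (SE 0.10, limma adjusted p = 0.00395). Uhrf1, which brings DNMT1 to newly copied DNA, was at 5.57 and 5.52 against 6.07 and 5.98, and fell by 0.48 (limma adjusted p = 0.00678). Dnmt1 (difference 0.20, SE 0.15) and Dnmt3l (-0.26, SE 0.09) did not pass the test (limma adjusted p of 0.402 and 0.0775), and with the replicate number as a block Dnmt3l did (0.0262). Among 14 methylation enzymes and methyl-CpG readers tested, with Dnmt3b, 4 rose and 5 fell (64.3% changed), 2 and 1 of them over 2-fold. Their differences ran from -1.2 to 2.47. All genes tested give 30.7% changed, 16.3% higher and 14.5% lower, with a median difference of 0.06. The reader Zbtb38, a zinc finger protein that binds methylated DNA, had a difference of 1.22. Tet1, the main dioxygenase of stem cells, was at 5.79 and 5.77 in PRDM14_DNMT3B-labelled cells, against 4.94 and 5.01 in Dnmt3b_KO cells and 4.96 and 4.91 in J1. It rose by 0.80 log2 units (SE 0.08, limma adjusted p = 0.000939), whereas Tet2 did not pass (difference 0.07, SE 0.16, adjusted p = 0.783). Over 22 genes for TET proteins and base excision repair, 5 were higher and 2 lower, shares near those of all genes. The larger differences were those of Apobec1, a cytidine deaminase (1.54), and Nthl1, a DNA glycosylase (1.14).

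Of the 23811 genes tested, 7314 changed (limma, Benjamini-Hochberg adjusted p under 0.05), 3873 higher and 3441 lower in PRDM14_DNMT3B-labelled cells. Over 2-fold, 1495 genes were higher (6.28%) and 1621 lower (6.81%), and over 8-fold 188 were higher and 208 lower. With normexp background correction, which compresses the differences of dim genes, the counts over 2-fold were 635 higher and 759 lower, and with only probes well above background on all 4 arrays 941 and 1036. Without the first Dnmt3b_KO array 2578 genes were higher. All 7314 had the same sign within slide 1 and within slide 2. The calls were made on these same arrays, so this was largely fixed in advance and adds no support. The median absolute difference of the changed genes was 0.86 log2 units. Among the changed genes, 337 that were higher were not well above background on either Dnmt3b_KO array, 416 that were lower were not so on either PRDM14_DNMT3B-labelled array, and 150 were dim on all 4 arrays.

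Among genes measured on all 4 arrays, and with predicted genes and clone names such as Gm4340 left out, the largest increases were in the Zscan4 family, zinc finger genes of the 2-cell embryo. Zscan4e was at 3.87 and 3.84 in PRDM14_DNMT3B-labelled cells, against -3.24 and -3.52 in Dnmt3b_KO cells, 150-fold higher (log2 difference 7.23, SE 0.30, limma adjusted p = 6.88e-05). Lgals4, an intestinal galectin, was next outside this family under the same rule on names, at 1.14 and 0.88 against -3.85 and -3.90 (29.5-fold). The others of the 12 highest so chosen were Ccdc113 (3.71), Cygb, a haem protein called cytoglobin (3.48), Apol8 (3.36), Defa26 (3.30), Clca3b (3.24), Dglucy, D-glutamate cyclase (3.23), and Defa-ps1 (3.16). The largest decrease among measured genes was that of Prss23, a serine protease, at -3.67 and -3.80 in PRDM14_DNMT3B-labelled cells against 1.92 and 2.10 in Dnmt3b_KO cells, 53.3-fold lower (limma adjusted p = 0.00021). Genes of matrix and contractile cells followed, with Thbs1, a matrix glycoprotein (-5.30), Timp2, an inhibitor of matrix proteases (-4.91), Tagln (-4.61), Cnn1 (-4.42) and Acta2 (-4.33), all 3 of the last named being smooth muscle cytoskeletal genes. Krt8 and Krt18, Pkdcc (-4.61), Flt1, a VEGF receptor (-4.53), and Fmr1nb (-4.45) were also among the 12 lowest.

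Where 1 group was not above background, only a bound could be given. Gbp2, an interferon-induced GTPase, was at -4.71 and -4.70 in PRDM14_DNMT3B-labelled cells, against 2.44 and 2.58 in Dnmt3b_KO cells, at least 145-fold lower (limma adjusted p = 0.000114). Glod5 was at least 137-fold lower, Csf1, the macrophage growth factor, at least 48.2-fold and T, the mesoderm factor Brachyury, at least 48.4-fold. In the other direction Usp-ps was at 1.04 and 1.26 against -6.04 and -6.56, at least 64.3-fold higher (limma adjusted p = 0.000275). Lgals6, a galectin closely related to Lgals4, was at least 32.1-fold higher, Tmem92 at least 29.8-fold and Zfp353 at least 16.5-fold.

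**Figure D2:**
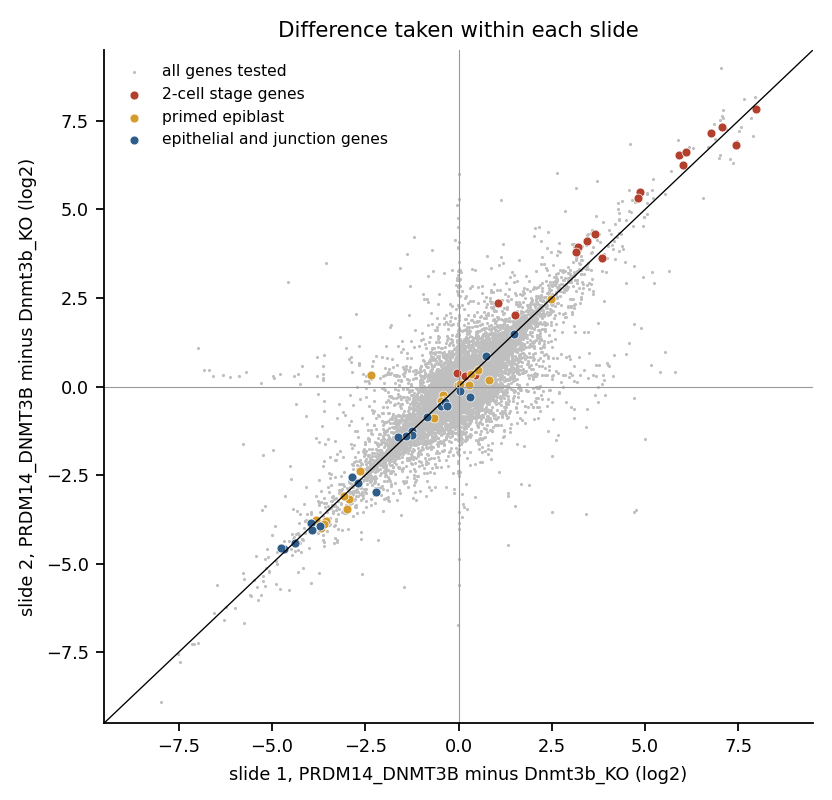
Difference between PRDM14_DNMT3B-labelled and Dnmt3b_KO cells for each of 23811 genes (log2), taken within slide 1 (x axis) and within slide 2 (y axis), with genes of 3 lists in colour and the line of equality. Genes of the 2-cell list reach 7.90 in the mean of both slides, and primed epiblast and epithelial genes lie mostly below 0 on both slides.

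Genes of naive pluripotency tended to be higher and genes of the primed epiblast lower. Of 26 naive genes tested 14 rose, 3 fell and 9 did not pass, with a median difference of 0.59. Dppa3, a maternal factor that shields DNA from TET3, was at 3.15 and 3.34 in PRDM14_DNMT3B-labelled cells, against 0.80 and 1.03 in Dnmt3b_KO cells, 5.01-fold higher (limma adjusted p = 0.000189). Fbxo15, a target of OCT4, rose by 1.36 log2 units, Jam2, a cell adhesion molecule, by 1.28, Zfp42, also called Rex1, by 1.20, Gbx2, a homeobox factor, by 1.11 and Klf2, a Kruppel-like factor, by 0.77. Nanog, a core factor, was at 5.73 and 5.73 in PRDM14_DNMT3B-labelled cells, against 6.16 and 6.10 in Dnmt3b_KO cells, and fell by 0.39 (limma adjusted p = 0.0228), a call that ended without any 1 of the 4 arrays (adjusted p of 0.0791 to 0.114). Prdm14 is itself on this list and is 1 of the 3 that fell.

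Of 23 primed epiblast genes 13 fell, 2 rose and 8 did not pass, with a median of -1.01 (-0.61 with only probes well above background on all 4 arrays, -2.43 without the second Dnmt3b_KO array). Fgf5, the classic marker of this stage, was at -1.59 and -1.75 in PRDM14_DNMT3B-labelled cells, against 2.10 and 2.25 in Dnmt3b_KO cells, 14.4-fold lower (SE of the log2 difference 0.15, limma adjusted p = 6.38e-05). Pou3f1, a POU factor of the early epiblast, was at 1.10 and 1.16 against 4.05 and 4.33, a difference of -3.06. The J1 levels of both genes, 1.74 and 1.95 for Fgf5 and 4.68 and 4.85 for Pou3f1, were closer to those of Dnmt3b_KO. Otx2, which opens epiblast enhancers, fell by 0.78 log2 units. Dnmt3b stands on this list and is 1 of the 2 that rose.

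The Nodal targets Lefty1 and Lefty2 were among the lowest of the epiblast genes, while Nodal was not. Lefty1, a Nodal inhibitor that Nodal itself induces, was at -0.17 and -0.08 in PRDM14_DNMT3B-labelled cells, against 3.64 and 3.68 in Dnmt3b_KO cells, a difference of -3.79 (SE 0.08, limma adjusted p = 1.32e-05), and J1 had 1.91 and 1.88. Lefty2 differed by -3.69. Nodal, the ligand, was at 4.63 and 4.46 against 4.29 and 4.11 and did not pass (limma adjusted p = 0.0708, 0.0146 for Nodal with the replicate number as a block). Over 22 Nodal and BMP genes 7 rose and 9 fell. Fst, which binds activin, fell by 2.40 log2 units and Bmp8b, a BMP ligand, by 1.80, whereas Id1, a BMP target that blocks differentiation factors, rose by 1.44.

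FGF ligands and their feedback genes did not move as a group. Fgf8 fell by 2.51 log2 units and Fgf4, the main FGF of stem cells, did not pass (difference 0.17, limma adjusted p = 0.203). The receptor gene Fgfr4 rose by 1.92, and the ERK inhibitors Spry1 and Spred1 fell by 1.04 and 0.95, while Spred2 rose by 0.78. The list of 22 had 5 higher and 6 lower. Of 19 immediate early and AP-1 genes, which growth factors induce, 6 rose and 7 fell. Fosl2, an AP-1 subunit, was at -3.60 and -3.62 in PRDM14_DNMT3B-labelled cells, against -0.24 and -0.04 in Dnmt3b_KO cells, and Atf3, Ier3 and Jun fell by 1.62, 1.46 and 1.21. Among 18 Wnt targets 3 rose and 5 fell, with T lowest and Rnf43, a ubiquitin ligase that removes Wnt receptors, at least 4.35-fold lower. Of 13 LIF and STAT3 genes 2 rose and 2 fell, a share of 30.8% changed against 30.7% of all genes. The share was 50.0% for the FGF list, 68.4% for the immediate early list and 44.4% for the Wnt targets. The receptor subunit Il6st and the kinase Jak2 fell by 0.56 and 0.84 log2 units.

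Genes of the 2-cell embryo gave the highest list median. Of 21 tested 19 rose, none fell and 2 did not pass, with a median of 3.97 log2 units. It was 3.05 where each dim gene took its bound, and 1.19 after normexp background correction. Of the 21 genes, 7 were well above background on both Dnmt3b_KO arrays, and genes dim there had little room to fall. Gm4340 was at 5.63 and 5.82 in PRDM14_DNMT3B-labelled cells, against -2.34 and -2.01 in Dnmt3b_KO cells and -1.33 and -0.95 in J1 (239-fold, limma adjusted p = 1.57e-05). Zscan4c (mm9 chromosome 7, 11595751 to 11595810) was at 4.05 and 4.06 against -2.71 and -3.09 (124-fold), and Zscan4f at 4.16 and 4.29 against -3.27 and -2.54 (140-fold). J1 read -2.47 and -2.80 for Zscan4c, close to Dnmt3b_KO. Tcstv3 was at least 25.5-fold higher, and Pramel7 at least 4.42-fold. Zscan4 members are near-identical copies, so their probes may share signal and they do not count as independent genes. In bulk RNA a larger share of cells in this state cannot be told apart from more RNA per cell.

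Germline genes that DNA methylation is known to silence were higher as well, by smaller amounts. Of 37 tested 19 rose, 3 fell and 15 did not pass, with a median of 0.53, and 8 more were on the array and did not pass the filter on dim probes. Tex14, a component of the intercellular bridges of germ cells, was at 1.63 and 1.80 in PRDM14_DNMT3B-labelled cells, against -1.10 and -1.11 in Dnmt3b_KO cells and -4.26 and -4.27 in J1, 7.08-fold higher (SE of the log2 difference 0.09, limma adjusted p = 4.06e-05). Piwil2, a piRNA-binding Argonaute, was at -0.62 and -0.55 against -2.56 and -2.94, with J1 at -3.92 and -3.57. Stk31, a kinase-like Tudor protein of spermatogenesis, Syce1, a part of the synaptonemal complex, and Tex15, a piRNA pathway factor, rose by 2.14, 1.88 and 1.70 log2 units. Syce1 was at 2.78 and 2.67 in PRDM14_DNMT3B-labelled cells, 0.84 and 0.85 in Dnmt3b_KO cells and 1.44 and 1.20 in J1. For each of these 3 genes with a level given, J1 lay nearer to Dnmt3b_KO than to PRDM14_DNMT3B-labelled cells. Dnmt3b_KO was not at the J1 level, however. For Tex14 it lay well above J1 and nearer to PRDM14_DNMT3B-labelled cells than to J1. Gpat2 was the lowest member at -1.82.

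Of 16 genes of germ cell specification 9 rose, 4 fell and 3 did not pass. Ifitm3, a membrane protein of early germ cells, was at 5.40 and 5.38 in PRDM14_DNMT3B-labelled cells, against 2.79 and 2.77 in Dnmt3b_KO cells (difference 2.61, limma adjusted p = 4.75e-05). Kit, the stem cell factor receptor, was at 2.62 and 2.72 against 0.38 and 0.56, and Itgb3, an integrin of germ cells, rose by 1.56 log2 units. Tfap2c, a germ cell transcription factor, rose by 0.64, and Prdm14 is among the 4 that fell.

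Imprinted genes moved by parent of origin in different proportions. Of 27 maternally expressed genes 13 fell and 3 rose (median -0.39, -0.25 with normexp background correction and -0.19 with no filter on dim probes), and of 30 paternally expressed genes 12 rose and 7 fell (median 0.30). The difference between these lists was not tested. Meg3 and Mirg, non-coding RNAs of 1 cluster on chromosome 12, fell by 2.27 and 2.25 log2 units, with Meg3 at 0.00 and -0.48 in PRDM14_DNMT3B-labelled cells, against 2.08 and 1.97 in Dnmt3b_KO cells and 2.10 and 1.78 in J1. Calcr, the calcitonin receptor, fell by 3.37, and Dcn, the matrix protein decorin, was at least 7.99-fold lower. H19, a maternally expressed RNA, went the other way at 0.02 and -0.04 against -1.79 and -1.93 (difference 1.85, limma adjusted p = 0.000696). Among paternally expressed genes Kcnq1ot1, the RNA that silences its cluster, rose by 1.39, Mcts2 by 1.23 and Peg3 by 0.85. Axl, a receptor kinase, fell by 2.81, Magel2 by 1.59, Sfmbt2 by 1.38 and Peg10 by 0.98. Igf2 did not pass (difference 0.56, adjusted p = 0.178).

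Some clustered families were also higher. Of 17 Rhox genes tested, X-linked homeobox genes of the reproductive tract, 8 rose and none fell, and 5 more did not pass the filter. Rhox2h was at -1.08 and -1.36 in PRDM14_DNMT3B-labelled cells, against -4.27 and -4.28 in Dnmt3b_KO cells, at least 8.29-fold higher, and Rhox13 rose by 1.17 log2 units. Of 18 Hox genes tested 9 rose and 1 fell, out of 40 on the array (median 0.86, 0.46 with no filter on dim probes and 0.335 with normexp background correction). Hoxd11 and Hoxd10 were at least 4.79-fold and 3.83-fold higher, and Hoxa7 was at -0.12 and -0.06 against -1.96 and -2.22. The Xlr, Mage and Pramel families, many of which are germline or 2-cell genes, had 14 of 43 higher and 3 lower, among them Pramel39 and Pramel31, at least 24.3-fold and 8.30-fold higher. Over all genes 16.3% were higher and 14.5% lower. A probe was kept where any 1 group had it well above background, so genes dim in Dnmt3b_KO cells had little room to fall. On both Dnmt3b_KO arrays 8 of the 17 Rhox genes, 6 of the 18 Hox genes and 13 of the 43 others were well above background. The direction of these counts is thus partly set by the filter. Copies within these families are similar enough that their probes may share signal.

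Epithelial and fibroblast genes had the lowest medians among lists of at least 12 tested genes, together with the primed epiblast list, which was lowest without the second Dnmt3b_KO array and lay below the fibroblast list with quantile normalization and with normexp. Of 21 epithelial and junction genes 16 fell, 2 rose and 3 did not pass (median -1.40). Krt8 (mm9 chromosome 15, 101827138 to 101827197) was at 1.44 and 1.65 in PRDM14_DNMT3B-labelled cells, against 6.14 and 6.25 in Dnmt3b_KO cells and 5.27 and 5.29 in J1, 25.1-fold lower (SE of the log2 difference 0.11, limma adjusted p = 1.58e-05). Its filament partner Krt18 was at 2.86 and 2.64 against 7.24 and 7.06, 21.2-fold lower, and Krt19 at -0.07 and -0.15 against 3.88 and 3.72. The tight junction genes Cldn7 and Cldn3 differed by -4.00 and -3.82, and Cdh1 and Epcam, adhesion genes of stem cells too, fell by 1.25 and 1.31. The mesenchymal factor Twist2 stands on the list and was at least 8.32-fold lower. The keratin family as a whole, with 30 of 54 genes tested, had 8 lower and 4 higher, and among the higher was the hair keratin Krt33a, at least 6.35-fold.

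Of 22 fibroblast and matrix genes 16 fell, 1 rose and 5 did not pass (median -1.22). Col1a1, a chain of type I collagen, was at -2.47 and -2.56 in PRDM14_DNMT3B-labelled cells, against 1.73 and 1.73 in Dnmt3b_KO cells, a difference of -4.25 (SE 0.09, limma adjusted p = 1.32e-05). J1 had -2.04 and -1.91, close to the PRDM14_DNMT3B-labelled cells. S100a4, a calcium-binding protein of fibroblasts, was at -1.76 and -1.65 against 2.53 and 2.54, with J1 between them at 0.14 and 0.04. The summed linear signal of the list was 112.6 and 106.6 in PRDM14_DNMT3B-labelled cells and 352.2 and 334.5 in Dnmt3b_KO cells, and 1 of its 22 genes was dim on all 4 arrays. Over the collagen family 12 of 29 tested fell and 4 rose. The cultures were stated to be free of feeder cells, and the part that other cells may have in these differences was not tested.

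Markers of other lineages moved in both directions. Of 21 trophoblast genes 10 fell and 3 rose. Their summed signal was 163.1 and 157.25 in PRDM14_DNMT3B-labelled cells, against 349.6 and 337.1 in Dnmt3b_KO cells, with Krt8, Krt18 and Krt19 counted here too. These 3 keratins made up most of the Dnmt3b_KO sums. Without them the sum of the list was higher in PRDM14_DNMT3B-labelled cells, so the lower sum is that of the keratins. Cdx2, the trophoblast homeobox factor, was at -2.28 and -1.79 against -0.56 and -0.64 (limma adjusted p = 0.0502 for Cdx2 from only the 4 arrays with the replicate block), Eomes at -0.85 and -0.79 against 1.23 and 1.21, and Gata3 did not pass (difference -0.30, adjusted p = 0.236). Of 12 mesoderm genes 6 fell and 2 rose. T was at -4.28 and -3.77 against 1.47 and 1.68, and Wnt3, which induces it, fell by 3.06 log2 units, whereas Mesp2, a factor of somite formation, rose by 2.32. Of 24 primitive endoderm genes 8 fell and 5 rose. Foxa2, well above background on 1 of the 2 PRDM14_DNMT3B-labelled arrays, and Cited1 differed by -2.95 and -3.44. Sox7, well above background on 1 of the 2 Dnmt3b_KO arrays, and Hnf4a, transcription factors of the same lineage, rose, Sox7 by 2.55 log2 units and Hnf4a at least 6.35-fold. The endoderm factor Gata6 was at -3.71 and -3.84 against -4.31 and -4.10 and did not pass (adjusted p = 0.267). Of 14 neural genes 3 rose and 2 fell, Nes (-2.35) and Sox11 (-3.09), and of 8 haematopoietic and endothelial markers 1 rose and 1 fell. The shares changed in these 2 lists, 35.7% and 25.0%, were near the 30.7% of all genes. Those of the trophoblast, mesoderm and primitive endoderm lists were 61.9%, 66.7% and 54.2%. The summed signal of the primitive endoderm list was 477.5 and 473.75 in PRDM14_DNMT3B-labelled cells, against 433.7 and 434.5 in Dnmt3b_KO cells. That of the mesoderm list was 21.51 and 14.98 against 25.33 and 22.13, that of the neural list 23.04 and 24.75 against 18.38 and 19.21, and that of the haematopoietic and endothelial list 4.58 and 4.93 against 2.89 and 3.1. The sums were thus higher in PRDM14_DNMT3B-labelled cells for 3 of these 4 lists and lower for mesoderm.

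Interferon-inducible genes and the class I antigen presentation pathway were lower. Of 20 interferon-inducible genes 10 fell, 2 rose and 8 did not pass. The median was -0.97, and -0.25 with normexp background correction, -0.46 with no filter on dim probes and -0.23 with only probes well above background on all 4 arrays. Besides Gbp2, Oasl2, an antiviral protein, was at -6.38 and -6.41 in PRDM14_DNMT3B-labelled cells, against -1.23 and -1.27 in Dnmt3b_KO cells, at least 11.7-fold lower. Isg15, a ubiquitin-like modifier, was at -1.51 and -2.18 against 1.51 and 1.38 (difference -3.29, limma adjusted p = 0.000334), and J1 had 1.00 and 0.77. Of 13 class I genes 10 fell and 2 rose. B2m, the light chain of class I molecules, was at 0.86 and 0.95 against 2.51 and 2.71, with 2.56 and 2.77 in J1. The heavy chain H2-K1 fell by 1.83 log2 units, the peptide transporter Tap2 by 2.20, and the immunoproteasome subunit Psmb8 was at least 37.8-fold lower. Nlrc5, the transactivator of this pathway, was at least 3.36-fold higher (limma adjusted p = 0.0644 for Nlrc5 from only the 4 arrays with the replicate block). Ifitm3, on the interferon list as well as among germ cell genes, was 1 of the 2 that rose there.

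Among genes of p53 and stress responses 14 of 22 rose and 1 fell (median 0.52). Gdf15, a stress-induced cytokine, was at 0.95 and 1.08 in PRDM14_DNMT3B-labelled cells, against -1.57 and -1.04 in Dnmt3b_KO cells, a difference of 2.32 (SE 0.21, limma adjusted p = 0.000827). Trib3 and Atf4, of the amino acid stress response, rose by 1.31 and 1.17 log2 units, and Atf3 was the single gene that fell. Of 18 threonine, glycine and folate enzymes 7 rose and 3 fell. Tdh, the threonine dehydrogenase on which mouse stem cells depend, was at 9.23 and 8.98 against 8.13 and 7.99, and Gldc, of the glycine cleavage system, at 3.72 and 3.60 against 5.26 and 5.14. Of 16 glycolysis genes 3 rose and 2 fell, with Pfkp, a phosphofructokinase, highest at 1.29 (0.65 as the mean of its probes). The share of glycolysis genes changed, 31.2%, was near the 30.7% of all genes.

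Changes of Polycomb and histone H3 lysine methylation genes were small in size. Of 27 tested 8 rose and 3 fell, none of them over 2-fold. The share changed was 40.7%, against 30.7% of all genes, and it was 33.0% for the Zfp genes and 22.2% for the histone genes below. Smchd1, which acts on the inactive X and imprinted clusters, fell by 0.75, and Ezh2 did not pass (difference 0.16, adjusted p = 0.42). Of 348 Zfp genes 80 rose and 35 fell (median 0.15, 0.10 without the first Dnmt3b_KO array), the lowest being Zfp608, at least 16.8-fold lower. Of 45 histone genes 8 rose and 2 fell, with H3c15 and H2ac18 at 2.92 and 2.12. Of 14 housekeeping genes 1 rose and 3 fell, Actb did not pass (difference -0.14, adjusted p = 0.545), and B2m, counted above, was the only member past 2-fold.

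**Figure D3:**
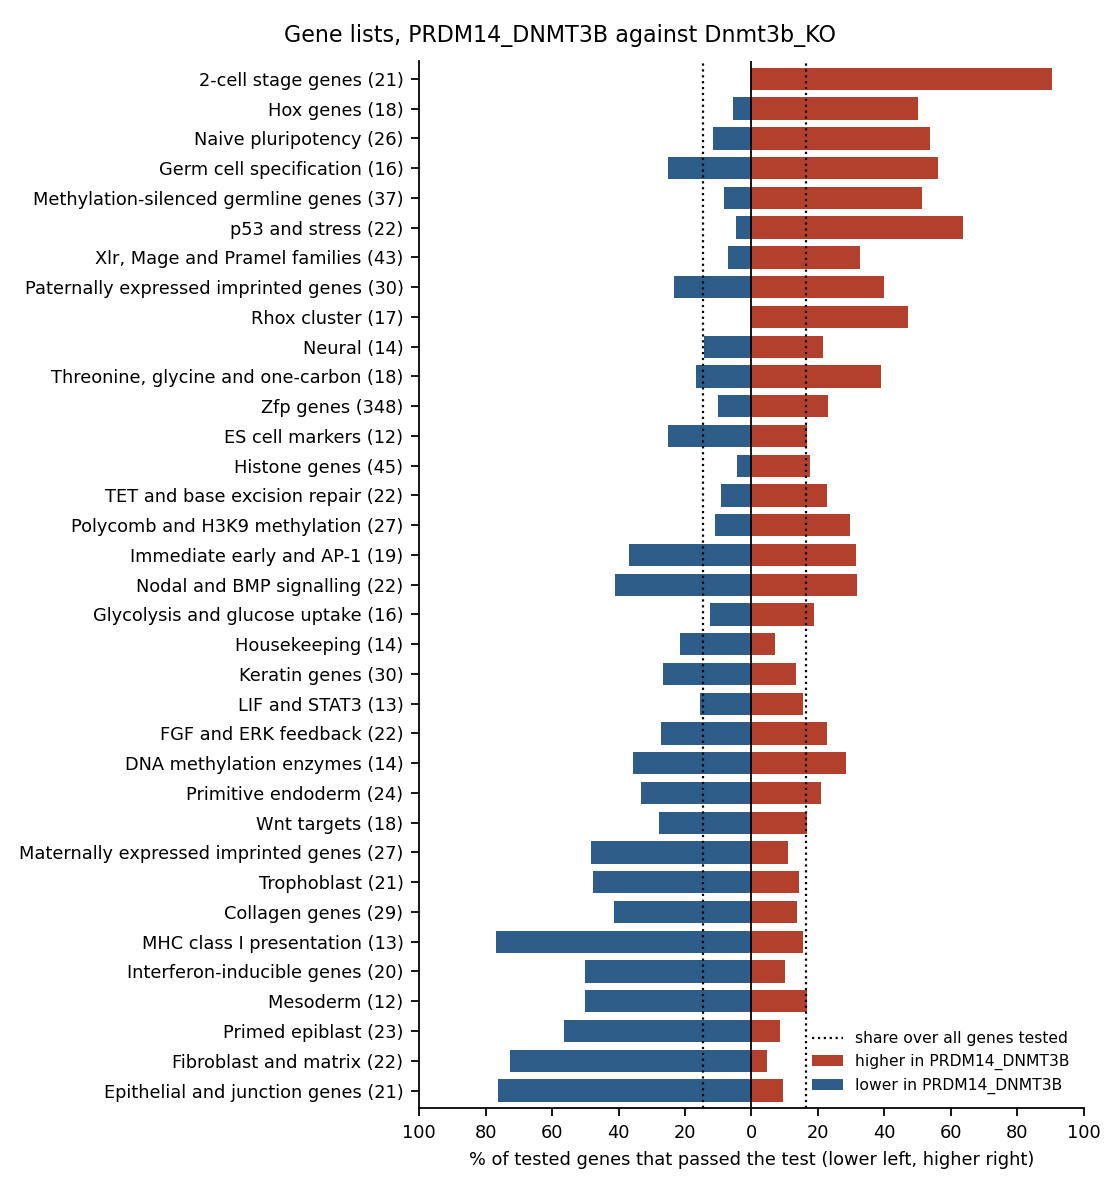
Share of the tested genes of each list (number in brackets) that passed the test higher (right) or lower (left) in PRDM14_DNMT3B-labelled cells than in Dnmt3b_KO cells, ordered by the median difference, with dotted lines at the shares over all genes (16.3% higher, 14.5% lower). The 2-cell list is at the top with 19 of 21 higher and the epithelial list at the bottom with 16 of 21 lower, and lists of fewer than 12 tested genes are not drawn.

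Changed genes were then set against the CpG content of their promoters, with the RefSeq window of 250 bases before to 50 after the start, which 12222 of the tested genes had. Of 1661 genes with 0 to 4 CpG, 14.2% were over 2-fold higher and 7.22% over 2-fold lower in PRDM14_DNMT3B-labelled cells. With 5 to 14 CpG (2910 genes) the shares were 8.49% and 10.6%, and with 15 to 65 CpG (7651 genes) 3.99% and 7.10%. The over 2-fold higher genes were thus a larger share where promoters were poor in CpG, the class in which the 2-cell genes lie (median of 1 CpG over 14 genes). Germline genes had a median of 18 over 33 genes, against 19 over all. The shares are descriptions with no test.

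**Figure D4:**
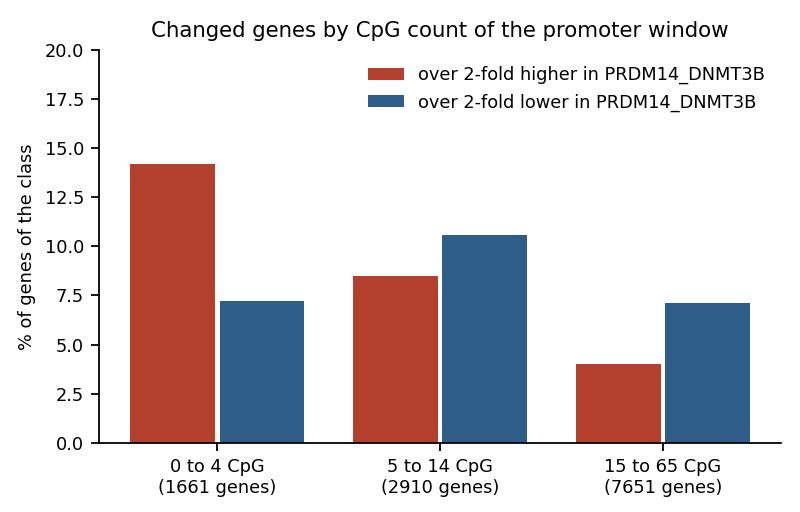
Share of genes over 2-fold higher (left bar of each pair) or lower (right bar) in PRDM14_DNMT3B-labelled cells than in Dnmt3b_KO cells and past the test, by the number of CpG in the 300-base promoter window. The share of higher genes is 14.2% in the class with the fewest CpG and 3.99% in the class with the most.

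By chromosome, chromosome 8 stood apart. Of its 1300 tested genes 518 were higher (39.8%) and 83 lower (6.38%) in PRDM14_DNMT3B-labelled cells, and its median difference lay 0.326 log2 units above that of the other autosomes, with 0.321 within slide 1 and 0.344 within slide 2, and 0.194 after normexp background correction. Its genes, cut into 4 equal parts in order of position, were higher in each, by 0.244, 0.370, 0.402 and 0.250. Every other autosome lay between -0.063 and 0.042. On the X chromosome 212 of 967 genes were lower (21.9%) and 116 higher, with a median of -0.087 relative to that of the autosomes. Without chromosome 8, a choice made after seeing the data, 6713 genes changed, 3355 higher and 3358 lower. Several genes named above lie on chromosome 8, among them Zfp42, Klf2, Gdf15, Tex15, Ccdc113, Zfp353 and Nlrc5, and Cdh1, which fell. Of 38 features tested on the Y chromosome 6 were higher and 6 lower. Their median relative to that of the autosomes was 0.108 (-0.016 within slide 1 and 0.104 within slide 2). Of the 5 Y-linked genes tested from a list of 8, 3 were lower. Eif2s3y (mm9 chromosome Y, 364951 to 365010) was at -4.42 and -5.11, not well above background, in PRDM14_DNMT3B-labelled cells, against 3.55 and 3.79 in Dnmt3b_KO cells and 3.62 and 3.94 in J1, at least 329-fold lower (limma adjusted p = 3.4e-05). Ddx3y was at least 74.7-fold lower and Uty at least 5.64-fold. The number of chromosomes in these lines was not measured, and its part in the differences was not tested.

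**Figure D5:**
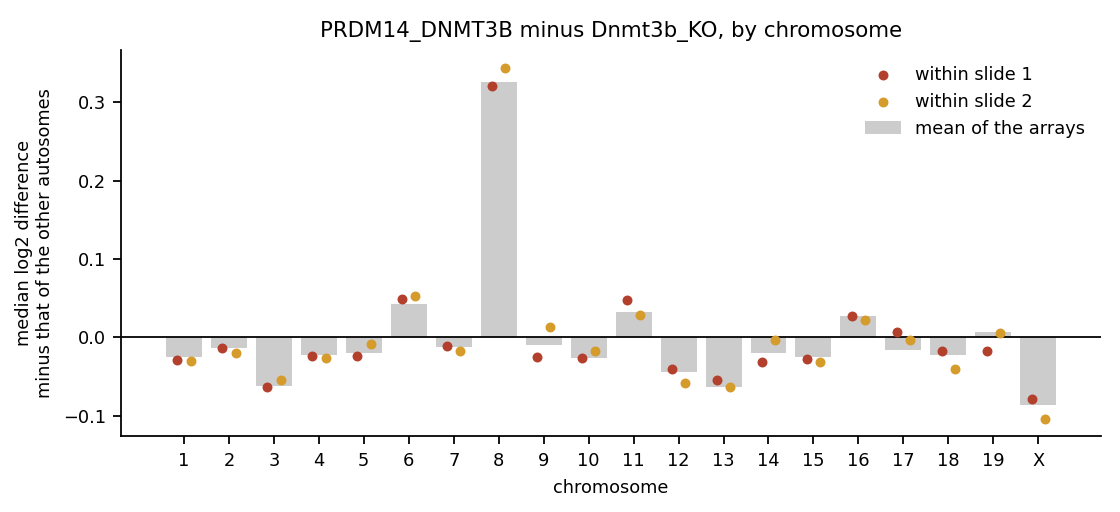
Median log2 difference between PRDM14_DNMT3B-labelled and Dnmt3b_KO cells for each chromosome, minus that of all other autosomes, from the means of the arrays (bars) and within slide 1 and slide 2 (dots). Chromosome 8 lies at 0.326, and the X chromosome at -0.087.

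Changed genes also lay in runs along the genome. A search for at least 5 neighbouring tested features that all passed the test over 2-fold in the same direction found 15 runs with 86 features, 11 higher and 4 lower in PRDM14_DNMT3B-labelled cells. On chromosome 3 the guanylate-binding proteins Gbp7, Gbp3, Gbp2b and Gbp2 formed a lower run (mm9 142209379 to 142300778). Gbp3 differed by -3.25, and the others, not well above background in PRDM14_DNMT3B-labelled cells, were at least 1.76-fold (Gbp7, well above background on 1 of the 2 Dnmt3b_KO arrays), 58.5-fold (Gbp2b) and 145-fold (Gbp2) lower. On chromosome 2 Hoxd13, Hoxd11, Hoxd10 and Hoxd4 formed a higher run (74509248 to 74569757). Hoxd13 differed by 2.07, Hoxd4 was at least 5.88-fold higher, and the bounds of Hoxd11 and Hoxd10 are those given above. On chromosome 12 a lower run began at Meg3 (110809678 to 110849017). Higher runs held the Tdpoz genes with Spopfm2 on chromosome 3 (93600794 to 94003372), Defa genes, which encode intestinal defensins, on chromosome 8 (22234705 to 22813183, 2 runs), Klk1b genes on chromosome 7 (51371648 to 51484325) and Rhox2 and Rhox4 genes on the X chromosome (34809907 to 34971993). Genes named only here were chosen after their values were seen. The runs were described and not tested, and in the families of similar copies a probe may read its neighbours' transcripts.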

How the data were processed

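The series holds 10 Agilent arrays of 1 colour with 60-base probes, from 6 groups of mouse embryonic stem cells, and 4 of them entered the comparison. Per the file headers, Feature Extraction 10.7.3.1 made the deposited intensities, with probe coordinates on mm9. The authors' deposited value table holds log2 values of the same arrays, scaled between arrays in a way not given in the sources used here (median 4.243 on each, r of at least 0.9993 with log2 intensity), and served as an alternative. The submitters' processing notes also name limma, without a version.

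From log2 intensity the 75th percentile of each array was subtracted, control and outlier spots were left out, and spots of a probe were averaged (59305 spots, 55681 probes). A probe was kept where some group had it well above background on all its arrays (33113 probes), each gene was read from its brightest kept probe on average (6141 genes had several), and 23811 genes were tested after 7 were dropped for missing values. Of the 7314 changed genes, 2003 had several probes, and in 27 another probe passed the test in the opposite direction. Names were updated through RefSeq accessions (GRCm38.p6, 20869 of 22232 matched, 2213 symbols changed). Exon positions are not given, for want of an mm9 annotation. All 10 arrays entered 1 group-means fit without covariates (limma 3.58.1, R 4.3.3, the data.table package at 1.17.8, 4 residual degrees of freedom, prior 1.729), with Benjamini-Hochberg adjustment and a threshold of 0.05. On simulated data for this comparison (23811 genes) the fit recovered 54% of 2-fold and 93% of 4-fold changes. The simulation changed a far smaller share of genes than was called in the data. It also drew independent noise, without the deviations that arrays of 1 number share. These rates may therefore not hold for the data. The number of arrays limits the precision.

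In the 2 groups compared and in J1 the arrays of each number shared a slide, while those of line JP-23 were on slides 3 and 4. Deviations from group means correlated at 0.261 to 0.507 over the 6 pairs of groups (0.461 between the groups compared). The pairs with JP-23 gave 0.261 to 0.344 and the pairs that shared slides 0.453 to 0.507. What arrays of 1 number share beyond the slide was not tested. The alternatives were slide and replicate number as blocks, other normalizations, background correction, filters, probe summaries and single arrays left out. Named genes are 8 methylation genes, of each list the 6 largest changes with the same sign on both slides and its first 3 members, and the largest measured and bounded differences, a subset of which is printed (some items are not reported here). Comparison, lists and rules were chosen with earlier results of these data known, so no list is independent support.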

Additional observations from a re-analysis of the deposited data

How the results depend on the processing

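Counts of changed genes ranged from 4983 to 9036 over 14 alternatives, and the share of higher among changed genes from 48.9% with quantile normalization to 55.3% with normexp background correction. With the replicate number as a block over all 10 arrays 9036 genes changed, a fit that also blocks arrays of line JP-23, which shared no slide with the others. With the slide as a block 8531 changed, and from only the 4 arrays 5681 without and 5810 with the replicate block. Genes over 2-fold numbered 635 higher and 759 lower with normexp, and 941 higher and 1036 lower with only probes well above background on all 4 arrays. Leaving out 1 array gave 2578 to 2753 higher genes, with fewer arrays in the fit. Tet2, which did not pass, ranged from -0.0234 to 0.1696 with 1 array left out and changed sign without PRDM14_DNMT3B replicate 2 and without Dnmt3b_KO replicate 1. Of the 280 genes chosen by rule, 230 changed, and 47 of them lost the call in at least 1 alternative. Over 3849 values of these genes 180 lost the call, 35 gained it and 53 changed sign, 1 of them of a gene that had changed. The replicate block changed the call of 3 named genes, Sox2, Dnmt3l and Nodal, which are given above with both values, and of no other gene printed for this comparison. After normexp the differences of 53 of the 153 genes printed for this comparison were more than 1.5 times smaller. Spots near background give bounds and not fold differences.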
